A study of Mus musculus with 8 samples.

Results

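The interleukin-1 (IL-1) ligands and receptors were followed through the myeloid cells of tumor-bearing mice as 5 of the 32285 annotated genes: Il1a and Il1b, which encode the ligands IL-1 alpha and IL-1 beta, Il1rn, which encodes the receptor antagonist, Il1r2, the decoy receptor, and Il1rap, the accessory chain. They were taken by symbol as the ligands, antagonist and receptor chains of the system, and their UMIs were compared by tissue, by cell class and by set of hashtags. Il1r1, the signalling receptor, was followed beside them.

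Either ligand binds the signalling receptor, which then recruits the accessory chain and passes the signal through MyD88 and IRAK kinases to NF-kB. The antagonist occupies the same receptor without recruiting the accessory chain, and the decoy receptor captures ligand but has no signalling domain. IL-1 beta is made as a precursor that is cut by caspase-1 in inflammasomes, whereas IL-1 alpha is active in its precursor form; neutrophils and monocytes are known sources of IL-1 and neutrophils a known site of the decoy receptor.

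The mice were C57BL6/J females that carried MOPC cells, a mouse oropharyngeal carcinoma line, under the skin of the flank. Every tissue held cells of WT mice and of a gene knockout model labelled Genotype_02, and the labels tie no hashtag to either, so no comparison of genotypes was made; no mouse without a tumor was included, and neither an age nor a time after injection was given. Living cells of the 4 tissues (tumor, spleen, bone marrow and blood) were sorted as Gr1-positive and negative for the lineage markers NK1.1, FcRe, Ter119, B220 and CD3, or as Gr1-negative and cKit-positive, and each tissue was sequenced as 1 droplet library of RNA with barcoded antibodies. Tumors alone were digested with enzymes, for 45 min at 37 °C, so tissue, digestion and library cannot be told apart. Hashtag antibodies marked mouse, organ and treatment, and a hashtag is taken here to stand for a mouse; the p-values below measure the spread between hashtags.

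The 4 libraries held 20012 cells, from 462 in tumor to 7763 in blood, with 7163843 to 64092351 unique molecular identifiers (UMIs, counted RNA molecules) per library, and 31 barcodes occurred in more than 1 library. A single hashtag was assigned to 89.62% to 91.89% of the cells of blood, marrow and spleen, but to 46.97% of those of tumor. Classes were set by a few marker genes: immature neutrophils had at least 1% of UMIs from Camp, Ngp and Ltf, mature neutrophils at least 3% (1% in tumor) from S100a8 and S100a9, monocytes at least 2 UMIs of Ly6c2 and 1 of Csf1r, and tumor macrophages at least 3 UMIs of C1qa, C1qb and C1qc. UMIs were summed per hashtag within a class and tissue (at least 20 cells, 5 in tumor), which gave 69 sums in 10 groups; levels are UMIs per 1000000 UMIs of the sum (CPM). Tumor sums rested on 5 to 17 neutrophils or 5 to 7 macrophages each.

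The classes were described by lists of markers, some of which also define them. The neutrophil list holds S100a8 and S100a9 and the macrophage list C1qa, C1qb and C1qc. The sums of these lists in their own classes are therefore no independent check. Summed CPM of 8 neutrophil markers was 32549 to 46009 in tumor neutrophils and 160661 to 215436 in blood neutrophils, and all 8 were detected in both. Tumor neutrophils had no UMI of 5 epithelial, 4 B cell, 5 red cell and 4 mast cell markers, whereas 7 of 7 macrophage markers were detected (100.0 to 1897.5 CPM summed) and 1 sum had 1550.0 CPM of T or NK cell markers. Tumor macrophages had 6651.8 to 9202.8 CPM of macrophage markers. Of the 8 neutrophil markers, 7 were detected in them, at 394.4 to 3808.3 CPM summed. The other, Ly6g, had no UMI there, nor in blood monocytes.

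The sequence in front of the RefSeq start site is shown for the genes whose levels differed most between tumor and blood, as context for members that moved together. Promoter windows of 250 bases before to 50 after the start (GRCm38.p6) were found for all 5 genes, and Il1rn had 3 start sites. Windows were searched on both strands for 6 motifs: NF-kB by its usual degenerate motif, AP-1 as TGANTCA, C/EBP as TTNNGNAA, PU.1 as GAGGAA, the TATA box as TATAAA and the core of the hypoxia response element as ACGTG. Capitals mark the matches, and each sequence ends at or before the last base in front of the start site.
Il1a chr2:129309973-129310092 (minus strand): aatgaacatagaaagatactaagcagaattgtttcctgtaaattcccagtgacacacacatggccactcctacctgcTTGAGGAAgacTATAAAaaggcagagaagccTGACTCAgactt
Il1b chr2:129371140-129371259 (minus strand): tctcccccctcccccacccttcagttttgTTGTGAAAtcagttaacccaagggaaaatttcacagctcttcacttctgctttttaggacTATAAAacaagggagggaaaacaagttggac
Il1rn chr2:24336700-24336799 (plus strand): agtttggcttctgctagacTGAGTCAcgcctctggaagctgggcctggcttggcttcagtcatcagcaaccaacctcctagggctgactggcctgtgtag
Il1r2 chr1:40085843-40085922 (plus strand): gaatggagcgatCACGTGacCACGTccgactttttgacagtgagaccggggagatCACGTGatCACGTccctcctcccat
The windows of both ligands held a TATA box match, beginning 32 bases before the Il1a start and 31 before the Il1b start, which 13.6% of 32851 promoters hold. In Il1a, an AP-1 match began 12 bases before the start (7.81% of promoters), and a C/EBP match at 43 bases (40.7%) overlapped a PU.1 match at 41 bases (28.3%). Il1b had a C/EBP match 91 bases before its start, and the first Il1rn start had an AP-1 match 141 bases before it; the windows of the other 2 Il1rn starts overlap and share their C/EBP matches, which lie at 3 positions. The Il1r2 window held matches of the hypoxia core at 4 places, beginning 238, 230, 195 and 187 bases before the start; those at 238 and 195 bases are CACGTG, which matches on both strands. The Il1rap window had 1 at 218 bases (19.6% of promoters). The letters of the NF-kB motif, present in 8.46% of promoters, were in none of these windows, which says nothing of sites elsewhere. Il1a, Il1b and Il1rn lie on chromosome 2 (129299609 to 129310186, 129364569 to 129371164 and 24336860 to 24351491), Il1r2 on chromosome 1 (40084692 to 40125230) and Il1rap on chromosome 16 (26581509 to 26730128). These RefSeq gene records begin upstream of the start site used for Il1a, Il1b and Il1r2, so the Il1a and Il1r2 stretches and part of that of Il1b fall inside the annotated gene.

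Il1a UMIs came from tumor cells, with 1 exception among the sums. In mature neutrophils of tumor it had 75.0, 254.9, 186.6 and 625.0 CPM (hashtags 2, 3, 4 and 6, from 3, 40, 6 and 74 UMIs). No UMI was found in the sums of mature neutrophils of blood (17326122 UMIs), marrow or spleen, of immature marrow neutrophils, or of monocytes of blood, marrow and spleen, and 1 UMI was found in immature spleen neutrophils. The groups did not overlap. Pooled over the 4 sums, the tumor level was at least 2044.5-fold higher than in blood and at least 714.5-fold higher than in marrow neutrophils, against a floor of 3 counts over the whole group; without hashtag 6, which held 74 of the 123 UMIs, it was at least 1235.5-fold and 431.7-fold higher. Tumor macrophages had 0, 50.48, 75.05 and 8.537 CPM (hashtags 2, 3, 4 and 7), pooled at least 56.18-fold higher than in blood monocytes, and at least 37.17-fold without hashtag 3. With the cells that had no single hashtag included, the level was 351.5 CPM (exact Poisson interval 308.5 to 398.8, counting error only) over 99 tumor neutrophils, 70.68 CPM (60.33 to 82.28) over 90 macrophages and 99.47 CPM (76.09 to 127.8) over 33 tumor monocytes.

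Il1b, the other ligand, was present in mature neutrophils of every tissue. Its level in blood neutrophils had a lowest value of 1863.5, a median of 2242.1 and a highest value of 3063.6 CPM over 8 sums, and that in spleen 1957.4, 2323.4 and 2932.1 CPM. In marrow the mature neutrophils had 278.2, 339.6 and 534.0 CPM, and in tumor the 4 sums had 9049.8, 14001.6, 13842.2 and 19342.7 CPM. Blood and spleen overlapped, marrow lay below both and tumor above both without overlap. Immature marrow neutrophils had 0 to 25.61 CPM with a median of 3.108, immature spleen neutrophils 0 to 20.48 CPM with a median of 2.899. Monocytes reached at most 86.97 CPM in blood, 5.073 in marrow and 157.8 in spleen, whereas macrophages of tumor had 4192.0, 4133.6, 3047.0 and 1306.2 CPM. In order of the group means of the sums, tumor neutrophils (14059.1 ± 4205.6 CPM, SD, n = 4) were followed by tumor macrophages (3169.7 ± 1349.3, n = 4). Spleen (2354.3 ± 313.7, n = 8) and blood neutrophils (2299.9 ± 390.1, n = 8) came next, then marrow neutrophils (372.7 ± 102.4, n = 8). The ranges of macrophages, spleen and blood overlapped. Over all 90 tumor macrophages, hashtag or not, Il1b was 5350.5 CPM (exact Poisson interval 5257.3 to 5444.8), above each of the macrophage sums. Taken the same way, it was 16356.7 CPM in tumor, 2279.9 in spleen and 2221.9 in blood mature neutrophils.

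Il1rn, whose product competes with both ligands, had overlapping levels in mature neutrophils of blood, marrow and spleen. Means were 166.2 ± 23.49 CPM for blood, 158.9 ± 26.58 for spleen and 135.7 ± 10.54 for marrow (SD, n = 8 each). In tumor neutrophils the 4 sums had 550.0, 707.4, 311.1 and 903.8 CPM, all above the highest blood value of 190.6 CPM. Tumor macrophages had 293.0, 252.4, 330.2 and 85.37 CPM. Immature neutrophils were lower than mature ones without overlap, with 25.52 to 36.53 CPM in marrow and 5.504 to 30.04 in spleen, and monocytes had means of 4.681 ± 2.785 in blood, 1.725 ± 1.428 in marrow and 11.58 ± 8.413 CPM in spleen.

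Il1r2, the decoy receptor, had the same order of tissues as Il1rn in mature neutrophils. Its level was 550.6 ± 114.2 CPM in blood, 536.9 ± 95.28 in spleen and 327.3 ± 79.8 in marrow mature neutrophils (SD, n = 8 each). The 4 tumor neutrophil sums had 1075.0, 2568.3, 1990.8 and 3589.8 CPM, above the highest blood sum of 699.5 CPM. Macrophages spread widely, with 169.0, 858.1, 720.5 and 162.2 CPM; the sum with the highest value (hashtag 3) also had the most S100a8 and S100a9, 3241.8 CPM against 202.8 to 630.4 in the other macrophage sums, and the part of neutrophil RNA in it was not tested. Immature neutrophils had 65.82 ± 10.55 CPM in marrow and 66.76 ± 10.45 in spleen, and monocyte means were 1.77 to 22.47 CPM.

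Il1rap, the accessory chain that signalling needs, had its lowest level in mature neutrophils in marrow. Mature marrow neutrophils had 57.82 to 117.1 CPM with a median of 90.26, blood 481.2 to 637.2 with a median of 575.1, and spleen 641.7 to 861.2 with a median of 781.3. Spleen lay above blood and blood above marrow, each without overlap. Tumor neutrophils, at 850.0, 866.7, 559.9 and 1038.9 CPM, overlapped blood and spleen, and macrophages had 90.15, 151.4, 120.1 and 85.37 CPM. Il1r1, the signalling receptor, had at most 9.252 CPM in any sum outside tumor and 22.04 ± 23.34 CPM (8 UMIs, n = 4) in tumor neutrophils, too few UMIs for a test in any comparison.

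**Figure D1:**
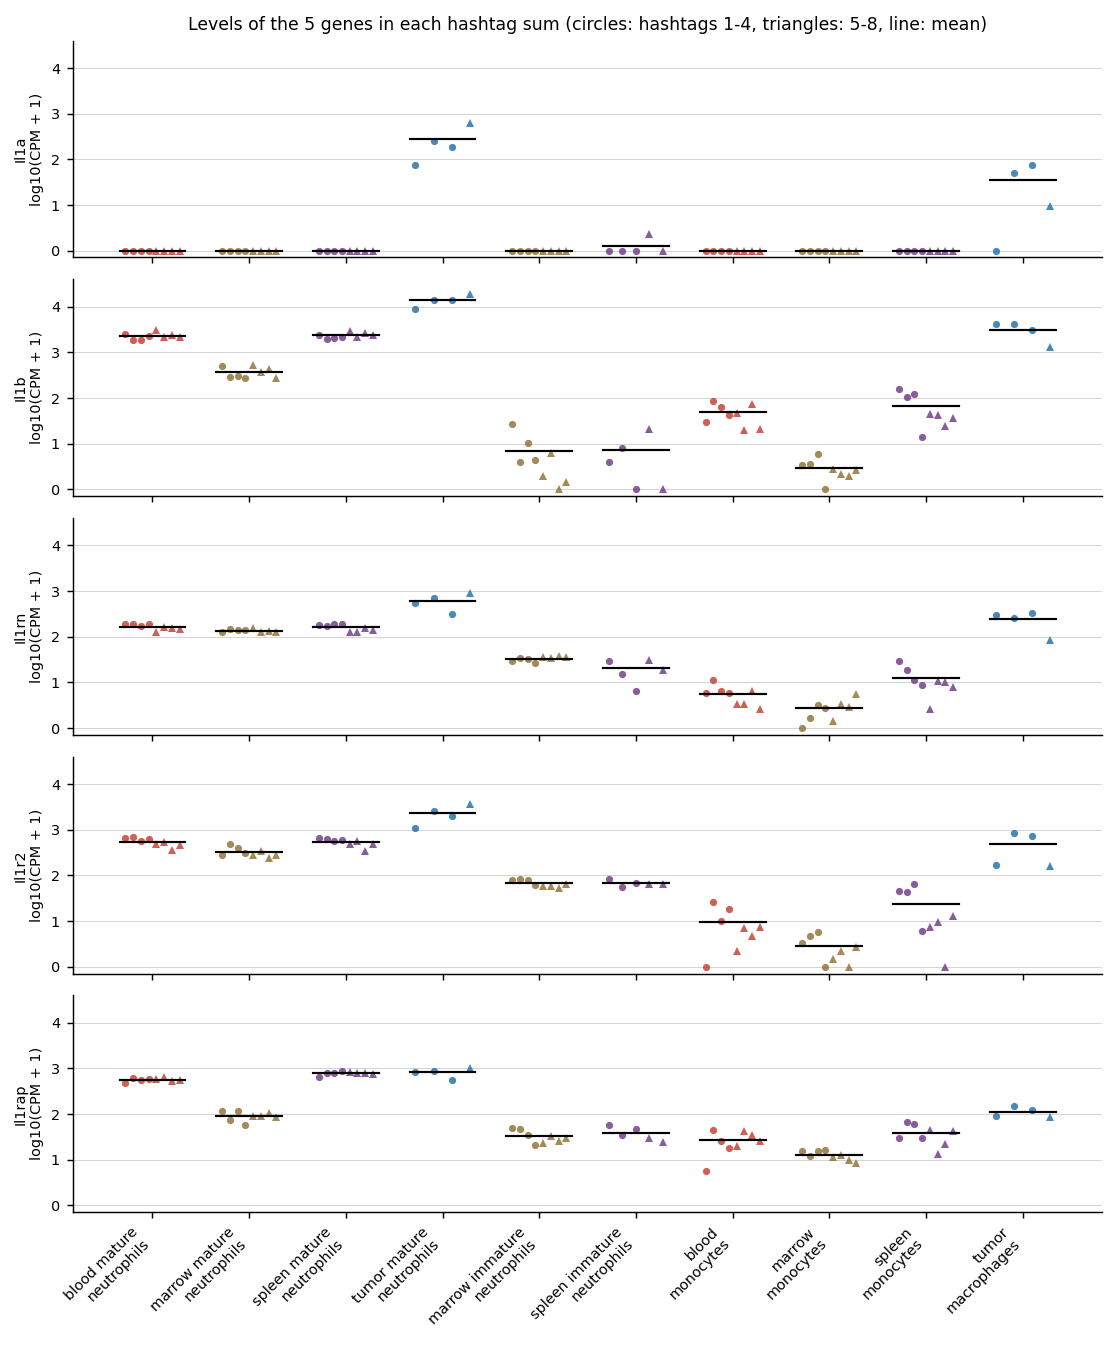
Levels of the 5 genes, as log10 of CPM plus 1 on the vertical axes, in the 10 groups on the horizontal axis. Each point is the sum of a hashtag (circles 1 to 4, triangles 5 to 8), colored by tissue, and the line is the mean: Il1a lies at 0 outside tumor apart from 1 immature spleen sum, and Il1b spans from 25.61 CPM at most in immature neutrophils to 9049.8 CPM and more in tumor neutrophils.

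Against blood, mature neutrophils of tumor were higher in the 4 genes detected in both, where 19.7% of the 7167 genes tested (at least 100 UMIs over the sums compared) were called higher at an adjusted p under 0.05. Il1b was 2.62 ± 0.32 higher on the log2 scale (SE; edgeR quasi-likelihood test, Benjamini-Hochberg adjusted p = 1.071e-10), in 4 of 4 tumor sums above every blood sum. Il1rn rose by 2.02 ± 0.20 (adjusted p = 3.696e-14) and Il1r2 by 2.11 ± 0.29 (6.79e-09). Il1a met the UMI minimum through tumor alone, so its test is not counted and the bound above is its only measure of size. Il1rap differed by 0.59 ± 0.20 (0.01427), and this call did not hold with TMM scaling (0.09, adjusted p = 0.7657), which lowered the median of all genes by 0.473, nor with a hashtag margin of 10 times (0.3913), with cells of several classes kept (0.05472), or without hashtag 3 (0.05552) or 6 (0.08595).  TMM scaling also moved the calls over all genes from 1410 higher and 1532 lower to 930 higher and 2535 lower. Summed CPM of 13 genes known to respond to tissue dissociation was 7799.8 to 14519.7 in tumor neutrophils, against 2447.0 to 3738.2 in blood, and 9 of the 11 tested were called higher; their part in the differences was not tested. The median share of mitochondrial UMIs was 0.6878% in tumor neutrophils and 0.06464% in blood neutrophils, and the 7 monocyte markers, all detected in both, summed to 430.8 to 2208.5 against 185.5 to 345.4 CPM; their part was not tested either.

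The rest of the pathway did not move as 1 block between tumor and blood neutrophils, where 19.7% of genes were called higher and 21.4% lower. Of 13 genes for transcription factors, their inhibitors and mRNA decay that act on IL-1 transcripts, 12 rose and 1 fell, with a median of 2.17 against -0.13 over all genes: Nfkb1 (3.71 ± 0.16), Nfkbia, an NF-kB inhibitor (3.75 ± 0.20), and Tnfaip3, which ends NF-kB signalling (4.82 ± 0.27), rose, and Spi1, which encodes PU.1, fell by 1.23. Of 11 genes known to respond to IL-1, 5 were tested and called higher. Cxcl3, 1 of these 5, met the UMI minimum through tumor alone (1211 UMIs against 2 in blood), so its test is not counted. Icam1, a neutrophil adhesion ligand, rose from 6.572 ± 1.756 to 494.9 ± 124.7 CPM, and the chemokine Cxcl2 from 14.85 ± 11.18 to 14737.1 ± 8216.5 CPM. Of 12 inflammasome and release genes, 5 rose, led by Nlrp3 (336.8 ± 30.14 to 2335.9 ± 1023.9 CPM), the sensor that activates caspase-1, and Ninj1 (1.32 ± 0.18), which ruptures dying cells; 5 fell, led by Gsdme, a pore-forming gasdermin, by 3.11 and Txnip by 1.56. Receptor signalling genes were split, with Irak2 (3.32 ± 0.17) and the inhibitory Irak3 (1.02 ± 0.25) higher, 3 lower (Irak4 by 2.24, Myd88 by 1.04 and Peli1 by 0.86) and the other 6 of 11 not called. Among 5 relatives tested, Il18 (2.08 ± 0.48) and its binding protein Il18bp (2.30 ± 0.63) rose and Il1f9, which encodes IL-36 gamma, fell by 0.98; the median of the relatives was 0.42 here and -0.08 with TMM scaling. TMM scaling also left 11 transcription genes, 4 inflammasome genes and 1 signalling gene called higher, with 4 signalling genes lower.

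Spleen neutrophils differed from blood in 1 of 4 genes tested. Il1rap was higher by 0.45 ± 0.14 (adjusted p = 0.0234) with 8 of 8 spleen sums above every blood sum, and 8.86% of 7942 genes were called higher. That call was lost with TMM scaling (adjusted p = 0.1334), with DESeq2 (0.1165), with limma on per-cell means (0.4075), and without hashtag 5 (0.0516), 7 (0.05112) or 8 (0.05505), at log2 differences of 0.36 to 0.48 in the 22 alternatives. Differences of Il1b (0.03 ± 0.27), Il1rn (-0.07 ± 0.14) and Il1r2 (-0.04 ± 0.24) did not pass. Of the lists, 0 of 5 relatives and 2 of 12 inflammasome genes (1 higher, 1 lower) were called, where 14.7% of genes were called in either direction. So were 2 of 12 signalling genes (Peli1 and Irak2, both higher), 1 of 13 transcription genes (Nfkb1, 0.44 ± 0.13) and 1 of 4 response genes (Icam1, 1.44 ± 0.25). With TMM scaling 1 inflammasome gene and 1 response gene were called. The dissociation genes were lower in spleen in 5 of 11, where 5.82% of genes were called lower.

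In marrow, mature neutrophils were lower than in blood in 3 of 4 genes, against 36.7% of 7649 genes called lower. Il1b fell by 2.63 ± 0.29 (adjusted p = 4.754e-12) and Il1rap by 2.63 ± 0.17 (1.933e-22), in 8 of 8 marrow sums below every blood sum. Il1r2 fell by 0.74 ± 0.24 (0.008937), a call lost with TMM scaling (0.06398), DESeq2 (0.2003) and limma (0.1152), and the groups overlapped. Il1rn was 0.30 lower (SE 0.145) and did not pass (0.08262), but passed in a fit of these sums alone (0.008819) and without hashtag 5 (0.03018). Of the transcription and decay genes 10 of 13 fell, with Zfp36, whose product destabilizes cytokine mRNAs, from 432.1 ± 33.36 to 153.7 ± 27.93 CPM, and Nfkb1 rose (0.34 ± 0.13). Inflammasome genes fell in 8 of 12, among them Nlrp3 by 1.36, Mefv, which encodes pyrin, by 1.95 and Casp4 by 1.29; with TMM scaling or DESeq2 6 inflammasome and 9 transcription genes were lower. The dissociation genes, with a median of 874.2 CPM in marrow and 3147.6 in blood, were lower in 10 of 11; whether they share a cause with the IL-1 genes was not tested.

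Stage within the marrow was compared inside 1 library, so digestion and library were shared. Mature exceeded immature neutrophils in Il1rn, Il1r2 and Il1rap, where 32.5% of 8089 genes were called higher. Il1b was also higher, but met the UMI minimum through the mature sums alone (2130 against 89 UMIs), so its test is not counted. The log2 difference was 6.19 ± 0.40 for Il1b (adjusted p = 6.231e-23), 2.33 ± 0.27 for Il1r2 (4.789e-12), 2.05 ± 0.16 for Il1rn (1.791e-18) and 1.55 ± 0.18 for Il1rap (1.232e-11). The groups did not overlap in any of the 4. Nlrp3 rose beside them from 7.165 ± 1.79 to 131.6 ± 18.34 CPM and Il1f9 from 52.94 ± 8.928 to 439.2 ± 69.34 CPM, and 9 of 12 inflammasome, 8 of 12 signalling and 10 of 12 transcription genes were higher, with medians of 0.74, 0.56 and 0.91 against -0.08 over all genes (7, 5 and 8 higher with DESeq2). Pycard, the inflammasome adaptor, fell by 1.25 and Irak1 by 0.88. Between spleen and marrow immature neutrophils, neither Il1b nor Il1r2 was called by edgeR, DESeq2 or limma, where edgeR called 0.832% of 7688 genes. Il1rn (574 UMIs in marrow, 48 in spleen) and Il1rap (547 and 85) met the UMI minimum through marrow alone, so their tests are not counted. Neither was called, and Il1rn, lower in spleen, had an unadjusted edgeR p under 0.05. With cells of several classes kept, Il1b was higher in spleen by 2.39 (edgeR adjusted p = 0.00969).

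Inside the tumor library, neutrophils exceeded macrophages in 3 of 3 genes other than Il1a and Il1rap, against 34.5% of the 1465 genes tested. Il1r2 differed by 2.29 ± 0.40 (edgeR adjusted p = 9.428e-07), Il1b by 2.15 ± 0.40 (4.264e-06) and Il1rn by 1.55 ± 0.27 (1.054e-06). Il1rap differed by 2.90 ± 0.31 (2.736e-12). Il1a had 123 UMIs in neutrophils and 15 in macrophages, and Il1rap 311 and 53. Both met the UMI minimum through neutrophils alone, so their tests are not counted. Il1rn and Il1a reached overlapping values in the 2 classes (lowest neutrophil sums 311.1 and 75.0 CPM, highest macrophage sums 330.2 and 75.05 CPM), and the other 3 did not overlap. Levels were also taken over all 99 neutrophils and 90 macrophages, hashtag or not. They were 2623.8 and 958.8 CPM for Il1r2, 16356.7 and 5350.5 for Il1b, 745.3 and 335.5 for Il1rn and 996.1 and 245.7 for Il1rap. In each of these genes the level over all macrophages was above the highest macrophage sum. Response genes followed in 5 of 5, with Cxcl3, a neutrophil chemokine, at 3075.3 ± 1714.0 against 310.5 ± 321.9 CPM, and Nlrp3 and Irak2 were higher by 2.17 ± 0.25 and 1.89 ± 0.23, while Pycard was lower by 1.67. Transcription genes were higher in 7 of 11, and in 11 of 11 with TMM scaling, which raised the median of all genes by 0.44.

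**Figure D2:**
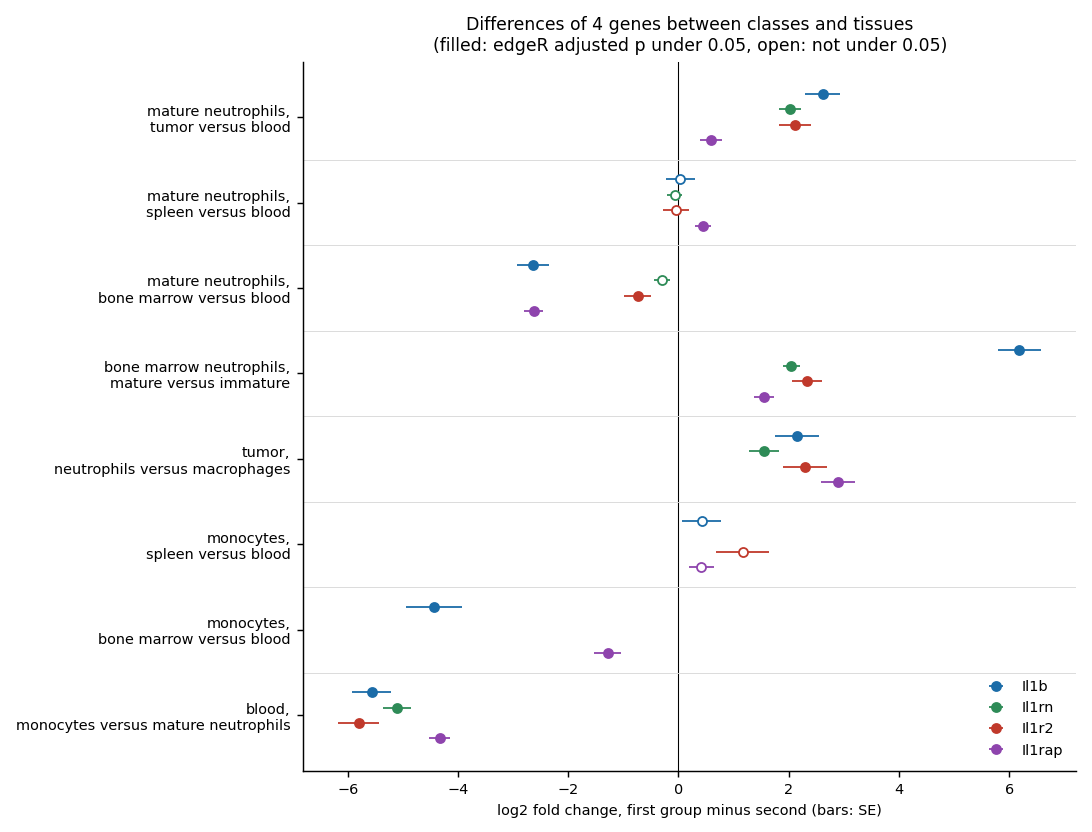
Differences of Il1b, Il1rn, Il1r2 and Il1rap between groups on the log2 scale (horizontal axis, first group minus second, bars SE) for 8 comparisons, filled where the edgeR adjusted p was under 0.05. Il1rap is the gene called in spleen against blood, and Il1b has its largest difference, 6.19, between mature and immature marrow neutrophils; Il1a is left out because it is at 0 in most groups, and pairs with under 100 UMIs have no point.

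The balance of antagonist to agonist was read as Il1rn UMIs per 100 Il1b UMIs of the same sum, which does not depend on library size. Marrow mature neutrophils had a median of 38.87 (25.5 to 51.31), blood 7.335 (4.15 to 10.14), spleen 6.649 (4.272 to 9.081) and tumor 4.862 (2.247 to 6.077). Marrow lay above every blood sum, by 2.38 on the log2 scale (exact two-sided permutation test over 8 and 8 sums, p = 0.0001554, the smallest these sums can give, adjusted 0.0004662 over 3 comparisons). With same-numbered hashtags as pairs, marrow was higher in 8 of 8 (exact sign-flip permutation p = 0.007812, the smallest 8 pairs can give, adjusted 0.02344). That a number pairs marrow with blood was not established. Spleen differed from blood by -0.11 (exact p = 0.5887). Tumor was lower by 0.72 with overlapping values (exact permutation p = 0.04444, adjusted 0.06667, smallest possible 0.00202), so this difference did not pass after adjustment; without hashtag 5 it was -0.84 (adjusted p = 0.01818), without hashtag 4 it was -0.42 and with stricter class rules -0.95 (0.03636).

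**Figure D3:**
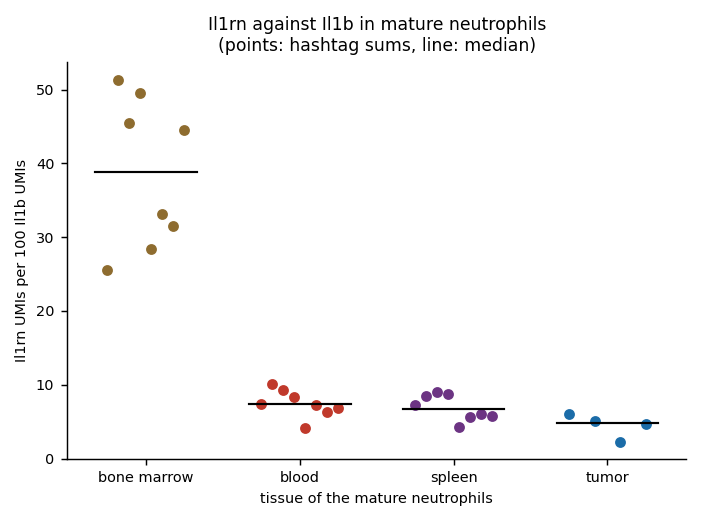
Il1rn UMIs per 100 Il1b UMIs (vertical axis) in mature neutrophils of 4 tissues, each point a hashtag sum and each line the median. The 8 marrow sums, 25.5 and above, lie over all sums of the other tissues, which reach 10.14 at most.

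Monocytes carried little of these transcripts beside neutrophils of the same blood library. Il1a had no UMI in either class. Il1b was lower in monocytes by 5.57 ± 0.35 and Il1rap by 4.33 ± 0.19, with edgeR adjusted p of 1.261e-23 or less (34.1% of 8552 genes called lower). Il1r2 was lower by 5.80 ± 0.37 and Il1rn by 5.11 ± 0.25. These 2 genes had 50 and 24 UMIs in the monocyte sums and met the UMI minimum through neutrophils alone, so their tests are not counted. Other genes went the opposite way, with Pycard higher by 3.80 ± 0.13, Capn2, a calpain, by 5.75 ± 0.27 and Icam1 by 2.22 ± 0.25 in monocytes. In blood and marrow, means of Il1b and Il1rap over the monocyte sums were no higher than the levels in lymphoid cells of the same library. Lymphoid cells should lack Il1b. The sums hold cells with a single hashtag, whereas the lymphoid levels were taken over all lymphoid cells, hashtag or not. Il1b was 47.26 ± 25.34 CPM in blood monocytes (SD, n = 8) and 83.6 in blood lymphoid cells (exact Poisson interval 62.05 to 110.2, 60 cells), and 1.951 ± 1.499 in marrow monocytes and 3.148 in marrow lymphoid cells (1.155 to 6.851, 77 cells). Il1rap was 26.0 ± 12.87 against 35.11 CPM (21.73 to 53.67) in blood and 11.68 ± 2.855 against 20.46 (14.55 to 27.97) in marrow. Over all monocytes, hashtag or not, Il1b was 113.2 CPM (104.9 to 122.1) in blood and 3.913 (2.94 to 5.106) in marrow. Il1rap was then 44.99 (39.78 to 50.71) in blood and 12.32 (10.54 to 14.32) in marrow. These levels were above the lymphoid ones with overlapping intervals, apart from Il1rap in marrow, which was below. Marrow monocyte sums had lower values than blood sums for Il1b by 4.44 ± 0.51 and for Il1rap by 1.28 ± 0.25. Both were called (edgeR adjusted p = 1.324e-11 and 8.588e-06), where 21.2% of 9232 genes were called lower. Il1b met the UMI minimum through blood alone, with 247 UMIs against 28 in marrow, so its test is not counted. Neither difference is read as a change in monocytes. Beside these 2 genes, 11 of 15 inflammasome, 11 of 12 transcription and 7 of 9 dissociation genes were lower in marrow monocytes. Spleen and blood monocytes differed in 0 of 3 genes tested by edgeR, where 23.8% of 8147 genes were called; Il1r2 was 1.16 ± 0.49 higher (unadjusted p = 0.01997, adjusted 0.0734) and passed with DESeq2 (0.04444), while limma called 0. It also passed without hashtag 2 (0.03037), 4 (0.04264) or 7 (0.04575), and Il1rap, at 0.70 without hashtag 6, passed there alone (0.022).

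Monocyte values of Il1b and Il1rap in blood and marrow lay near the lymphoid levels given above. In spleen, Il1b was 67.18 ± 53.08 CPM over the monocyte sums (SD, n = 8) and 131.9 (exact Poisson interval 124.1 to 140.1) over all monocytes. Spleen lymphoid cells had 40.64 (33.46 to 48.9). Il1rap was 37.94 ± 18.47 and 54.97 (49.96 to 60.36) in spleen monocytes, against 23.59 (18.2 to 30.06) in lymphoid cells. The part of background in the contrasts below was not tested. Whether Il1rap in lymphoid cells is background was not tested either. The marrow-to-blood difference of the sums was not alike in the 2 cell classes. For Il1b it was more negative in monocytes, with an interaction contrast of -1.81 ± 0.61 (log2 scale, adjusted p = 0.01973; 9.13% of 10600 genes called lower). For Il1rap it was less negative in monocytes by 1.35 ± 0.30 (adjusted p = 0.0002384; 19.5% called higher), which held in all alternatives run (0.04374 at most). The Il1b contrast did not pass with limma (-0.22, 0.7553), with cells thinned to 1000 UMIs (-1.54, 0.2671) or without hashtag 2 (-1.64, 0.06591). Contrasts of Il1r2 without hashtag 3 (-2.02, 0.03751) and of Il1rn without hashtag 8 (-1.41, 0.04588) passed. The spleen-to-blood difference gave 0 of 4 called contrasts by edgeR, DESeq2 or limma, 2 of them (Il1rn and Il1r2) at an unadjusted edgeR p under 0.05, with 1.06% of 10053 genes called.

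Shares of cells with a UMI were compared after thinning each cell to 1000 UMIs, since median depth ran from 2910.0 UMIs in spleen mature neutrophils to 25874.5 in macrophages among the cells used. Il1b was found in 80.9% of blood, 81.2% of spleen and 26.6% of marrow mature neutrophils (95.57%, 95.44% and 42.79% unthinned), in 99.0% of tumor neutrophils (96 of 97, exact interval 94.4 to 100.0) and in 75.7% of macrophages (64.3 to 84.9). Lymphoid cells of the same libraries, which should lack it, had it in 5.00% in blood (1.04 to 13.9, 60 cells, median 7958.5 UMIs), 3.5% in spleen (1.42 to 7.08) and 4.55% in tumor (0.555 to 15.5). Blood monocytes, at 6.93% (4.93 to 9.42, median 10975 UMIs), and spleen monocytes, at 8.32% (6.2 to 10.9), lay within or near those intervals, and their mean over single-hashtag cells was lower, 2.99% ± 2.67 and 4.57% ± 4.35 (SD, n = 8), so a share in monocytes is not read as expression. Tumor monocytes, by contrast, had Il1b in 90.9% (30 of 33 cells, 75.7 to 98.1). Il1a was found in 25.8% of tumor neutrophils (25 of 97, 17.4 to 35.7; 52.53% unthinned) and 6.76% of macrophages (2.23 to 15.1; 34.44% unthinned), in 1 of 3085 spleen neutrophils, in 0 of 5831 blood neutrophils, which allows a share of up to 0.0514%, and in 0 of 44 lymphoid cells of tumor, which allows 6.82% (limits of 3 cells of the total, for cells with a UMI after thinning).

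The receptors and the antagonist followed the sums. Il1r2 was found in 82.5% of tumor, 40.3% of blood, 37.9% of spleen and 27.7% of marrow mature neutrophils, with 6.67% in lymphoid cells of blood (1.85 to 16.2) and 1.5% in blood monocytes, at or below that background. Il1rap was found in 61.9%, 38.3%, 48.0% and 9.33% in the same order, and Il1rn in 37.1%, 15.4%, 14.2% and 12.4%. Joint detection was close to the product of the single shares in blood neutrophils (Il1b with Il1r2, 32.5% against 32.6%; Il1b with Il1rap, 31.9% against 31.0%). In marrow mature neutrophils it was 9.87% against 7.37% for Il1b with Il1r2, 4.13% against 2.48% for Il1b with Il1rap and 3.29% against 2.58% for Il1r2 with Il1rap, but close to the product for pairs with Il1rn (3.53% against 3.31% with Il1b, 3.41% against 3.44% with Il1r2, 1.2% against 1.16% with Il1rap). In tumor neutrophils all 25 cells with Il1a also had Il1b, where the product predicts 25.5% and 25.8% was found. Cells of 1 library are no replicates, so these shares were not tested.

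**Figure D4:**
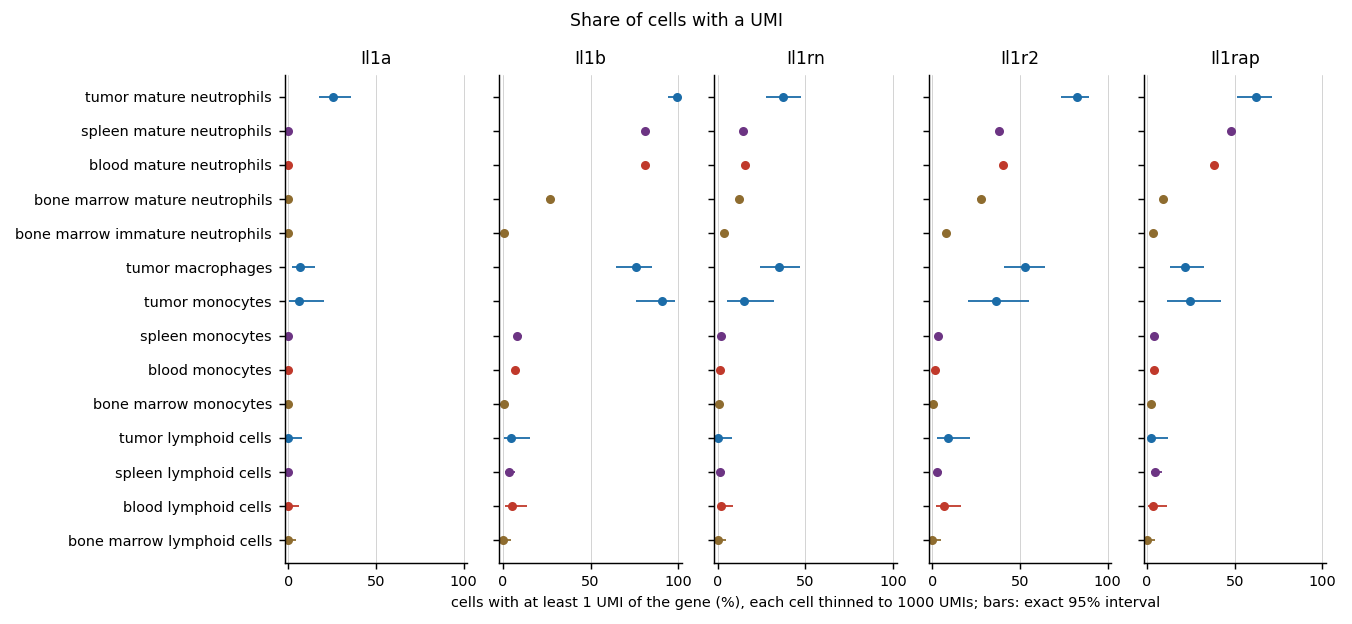
Percent of cells with at least 1 UMI of each gene (horizontal axes) after thinning to 1000 UMIs, in classes of cells colored by tissue, with exact 95% intervals that cover counting error only. Il1a is above 0 mainly in tumor classes, and Il1b reaches 80.9% and more in neutrophils of blood, spleen and tumor but 5.00% or less in lymphoid cells.

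Hashtags 1 to 4 and 5 to 8 were compared within each class because the numbers may stand for different mice; which genotype either set holds is not given. In blood neutrophils Il1r2 had 646.3, 699.5, 578.3 and 639.0 CPM in hashtags 1 to 4 and 485.2, 541.6, 351.9 and 463.4 in 5 to 8. Il1rn had 189.0, 190.6, 174.2 and 189.7 against 127.1, 159.7, 152.6 and 146.8 CPM. Both sets were separate for both genes, as they were, with the first higher, for 8.94% of 7058 genes. Marker sums separated in the same direction in these blood sums, with 7 of 7 monocyte markers at 268.7 to 345.4 against 185.5 to 246.0 CPM and 5 of 6 T or NK cell markers (Ncr1 at 0) at 29.53 to 41.79 against 8.336 to 26.94; their part was not tested. Neither gene was called over all genes by edgeR, DESeq2 or limma, and both had an unadjusted edgeR p under 0.05 (Il1r2 0.47 ± 0.22, adjusted p = 0.3197; Il1rn 0.35 ± 0.13, 0.1521), where 3.16% were called, but both passed in a fit of these 8 sums alone (0.01605 and 0.02773, 3.8% of genes called). Spleen neutrophils repeated the order: Il1r2 had 643.7, 611.8, 562.9 and 593.2 against 495.1, 556.9, 341.0 and 490.7 CPM, and Il1rn 177.3, 166.7, 189.8 and 189.8 against 125.3, 125.2, 157.1 and 140.0 CPM. These sets too were separate (6.57% of 5768 genes separate with the first higher) and not called by the same 3 tools, with Il1rn at an unadjusted edgeR p under 0.05 (Il1r2 0.35 ± 0.22, adjusted p = 0.5646; Il1rn 0.41 ± 0.14, 0.1044; 3.05% of genes called), though Il1rn passed with a hashtag margin of 10 times (0.009773). If a number marks the same mouse in both tissues, blood and spleen are not independent. Marrow neutrophils overlapped in both genes, and Il1b was lower in hashtags 1 to 4 with overlap in blood (2142.8 ± 331.3 against 2457.0 ± 423.6 CPM, SD, n = 4 each) and spleen (2163.2 ± 203.7 against 2545.5 ± 301.1). By edgeR, 0 of 4 genes were called between the sets in mature marrow neutrophils (1.93% of genes), 0 of 3 in immature marrow neutrophils (0.774%), 0 of 1 in immature spleen neutrophils (0.233%), 0 of 2 in blood monocytes (4.04%) and 0 of 1 in marrow monocytes (1.25%), with 0 at an unadjusted p under 0.05 and 0 by DESeq2 or limma.

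In the same comparison of mature neutrophils Aim2, the cytosolic DNA sensor of an inflammasome, was the listed gene called in 3 tissues, higher in hashtags 1 to 4 by 0.54 ± 0.13 in blood (adjusted p = 0.006148), 0.72 ± 0.20 in marrow (0.04181) and 0.48 ± 0.15 in spleen (0.04849). Its levels were 87.8 ± 4.274 against 61.27 ± 10.31 CPM in blood (SD, n = 4 each). Icam1 was higher in hashtags 1 to 4 in spleen (24.08 ± 6.516 against 10.39 ± 4.437 CPM). Il18, a related cytokine, was higher there in blood monocytes (51.91 ± 10.48 against 26.47 ± 9.905 CPM, adjusted p = 0.007107) and marrow monocytes (13.25 ± 4.693 against 4.243 ± 1.072 CPM, 0.000157). Macrophage markers separated the same way in blood monocytes (6 of 7 detected, C1qa at 0, 1426.0 to 2021.8 against 496.1 to 928.8 CPM) and marrow monocytes (7 of 7, 226.2 to 378.1 against 111.0 to 142.8); their part was not tested.

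Spleen monocytes were the class in which Il1b was called between the hashtag sets (3.17% of 6847 genes called higher). Il1r2 had 43.6, 41.56, 62.86 and 5.127 CPM in hashtags 1 to 4 and 6.463, 8.296, 0 and 11.88 in 5 to 8 (2.36 ± 0.48, edgeR adjusted p = 0.0005366). Its 115 against 28 UMIs met the UMI minimum through the first set alone, so its test is not counted. Il1b had 157.8, 103.0, 122.0 and 12.82 against 43.62, 40.65, 22.83 and 34.79 CPM (1.43 ± 0.39, 0.01809). In both genes hashtag 4 lay among the second set, so the sets overlapped. S100a8 and S100a9, which mark neutrophils, moved with them, at 2161.2, 2124.9, 3414.0 and 830.6 against 458.9, 968.9, 359.2 and 1465.5 CPM. The 8 neutrophil markers summed to 1086.9 to 4290.2 against 602.7 to 1940.7 CPM. Without overlap, the 7 macrophage markers summed to 921.6 to 1750.2 against 523.5 to 851.5 CPM and the 6 T or NK cell markers to 33.32 to 128.7 against 0.0 to 13.27 CPM, all members of both lists being detected. The part of these markers was not tested. Without monocytes that had 1% or more of S100a8 and S100a9, Il1b differed by 0.47 (adjusted p = 0.6756) and Il1r2 was too low to test. Neither gene passed in a fit of these sums alone (0.1506 for Il1b, 0.06791 for Il1r2, 2.53% of genes called), and Il1b did not pass without hashtag 1 (1.16, 0.1307), 3 (1.26, 0.139), 7 (1.30, 0.06669) or 8 (1.41, 0.06907). Without hashtag 3, Il1r2 was too low to test.

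**Figure D5:**
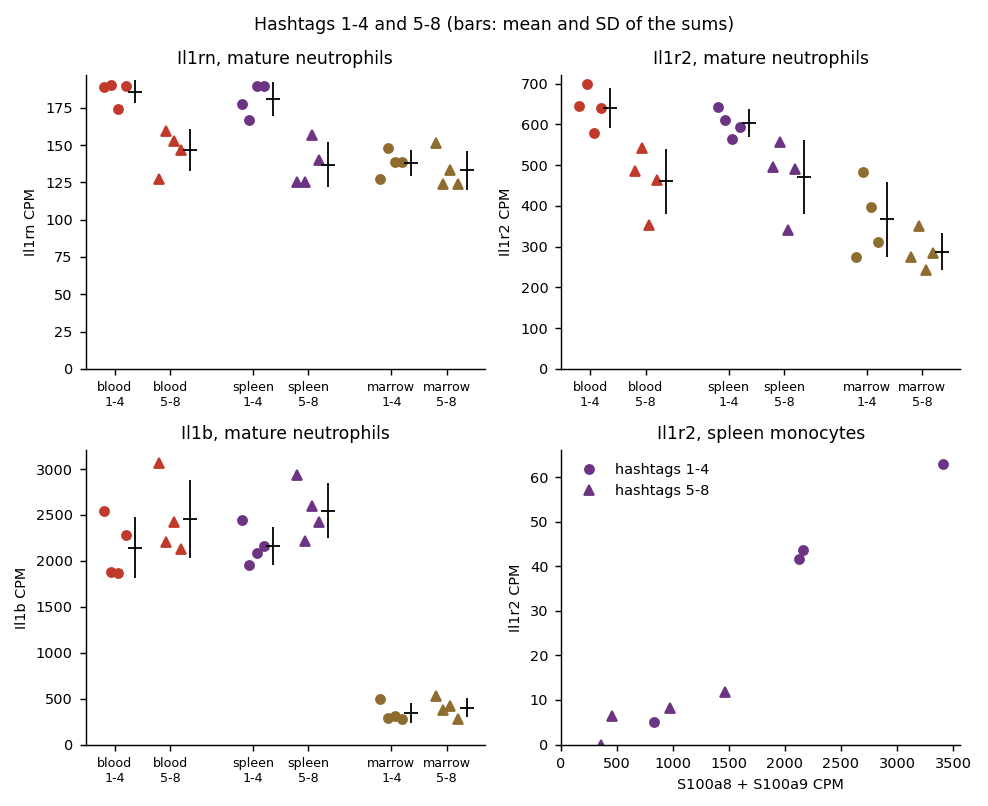
CPM of Il1rn, Il1r2 and Il1b in mature neutrophils by tissue and hashtag set (circles 1 to 4, triangles 5 to 8, bars mean and SD), and, in the last panel, Il1r2 against S100a8 plus S100a9 in spleen monocytes. Il1rn and Il1r2 are separate between the sets in blood and spleen and overlap in marrow, and the 3 spleen monocyte sums highest in S100a8 and S100a9 are the 3 highest in Il1r2.

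Genes with the most similar pattern were ranked by Pearson's r of log2(CPM + 10) over the 10 group means among 5367 genes, as a description; the means share libraries. Il1a was most like the chemokines Ccl24 (r = 0.991), Cxcl3 (0.989) and Ccl3 (0.975), of which Ccl3 had 1005.9 ± 981.2 CPM in tumor neutrophils (n = 4) and 4.783 ± 1.718 in blood neutrophils (n = 8). Il1b was most like Zfp36 (0.992), Il10rb, an IL-10 receptor chain (0.992), and Aff4, an elongation factor scaffold (0.991). Il1rn and Il1r2 had r = 0.99 with each other; the leading genes were Sipa1l1 (0.995) for Il1rn and Abtb2 (0.995), Lilr4b (0.994) and Ttc39b (0.993) for Il1r2. Il1rap was most like Mtmr12 (0.991), Akt2 (0.984) and Crebl2 (0.983). Among the 5 genes themselves r was lowest for Il1a with Il1rap (0.496).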

How the data were processed

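The authors deposited UMI counts per gene and cell for 4 RNA libraries (blood, bone marrow, spleen, tumor) with counts of hashtag and surface antibodies; the submitters' processing notes name Cell Ranger 7.0.1 and mm10. Whether doublets were removed before deposit is not given in the sources used here. The members and gene lists were chosen with earlier results of these data known.

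A cell was given a hashtag with a count of at least 20 and at least 3 times the next. Barcode suffix 1 to 4 was tied to tissue through the library names. Cells that met a neutrophil and a monocyte or macrophage rule (727) were left out of the classes, and no doublet caller was run; 4435 cells met no rule. Sums of counts entered 1 fit with edgeR 4.0.16 (glmQLFit and glmQLFTest, total UMIs as library sizes, no covariate; R 4.3.3), genes with at least 100 UMIs over the compared sums were tested, and p-values were Benjamini-Hochberg adjusted over them; the threshold was 0.05. Alternatives used DESeq2 1.42.0 and limma 3.58.1. Counts were simulated with the library sizes of the sums, but with mean levels over all 69 sums and 1 fixed spread, not those of the groups compared. For tumor against blood neutrophils (8768 genes), 89.1% of genes raised 4-fold and 12.8% of those raised 2-fold were called. Of genes lowered to 0.25 and to 0.5 of their level, 36.2% and 12.5% were called. Fewer genes lowered to 0.25 than raised 4-fold were thus found in this simulation. For spleen against blood (9611 genes), 94.0% of those raised 2-fold were called. The shares found at the real levels and spread were not measured. Named genes were the 5 members, Il1r1, up to 3 listed genes per direction with the smallest adjusted p, and 3 genes most like each member; other named genes were chosen after their values were seen. Poisson and Clopper-Pearson intervals are at 95%, limits for a count of 0 are 3 counts of the total, and CPM is a share of RNA, so a level can differ because other genes do.

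Hashtag numbers were checked as pairs. Deviations of same-numbered sums of mature neutrophils correlated at 0.31 to 0.641 between blood and spleen, where 7 of 8 correlated best with their own number. The values were 0.207 to 0.492 between blood and marrow (4 of 8) and -0.159 to 0.505 between spleen and marrow (2 of 8). The numbers thus pair most sums of blood with those of spleen, and a pairing with marrow was not established. The first fit has no block, and a fit with the number as a block was an alternative.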

Additional observations from a re-analysis of the deposited data

Results flagged for a closer look

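In 3 of 41 groups of sums tested, the highest or lowest value stood apart from the others by Dixon's criterion, which chance alone exceeds in about 1 of 20 groups. Il1b in immature marrow neutrophils was highest in hashtag 1, at 25.61 CPM. Il1rap in spleen mature neutrophils was lowest in hashtag 1, at 641.7 CPM. Il1rn in blood monocytes was highest in hashtag 2, at 10.44 CPM, a sum that also had the most S100a8 and S100a9 of the blood monocytes (1542.2 CPM).

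The marrow-to-blood difference differed between monocytes and mature neutrophils by a test of the difference itself for Il1b (-1.81 on the log2 scale) and Il1rap (1.35). Levels of both genes in these monocytes were near those in lymphoid cells of the same library. Il1b had 47.26 CPM over the blood monocyte sums and 113.2 over all blood monocytes, against 83.6 in blood lymphoid cells. The contrasts are thus not read as changes in monocytes, and that of Il1b did not pass with limma, with thinned cells or without hashtag 2. Whether Il1rap in lymphoid cells is background was not tested. Tumor cells that met no class rule, which no comparison used, held 54 UMIs of Il1a over 159 cells (44.84 CPM, Poisson interval 33.69 to 58.51), where blood neutrophils had 0.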

How the results depend on the processing

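Among 22 alternative settings, no called difference changed direction. The count of members called higher in tumor against blood neutrophils (5, with Il1a included here) was 3 with a hashtag margin of 10 times and 3 to 5 without a hashtag each. Il1a lost its call with DESeq2 (adjusted p = 0.1665). Il1rap lost its call in edgeR fits with TMM scaling (0.7657) and with cells of several classes kept (0.05472). In spleen against blood (1) it was 0 with TMM scaling, DESeq2 and limma, and 0 to 1 without a hashtag each. With cells of several classes kept, 1 member was called higher in immature spleen neutrophils (0). Tumor neutrophils against macrophages (5, with Il1a and Il1rap included here) had 2 with cells thinned to 1000 UMIs, where fewer genes reach the UMI minimum. In that comparison too, Il1a lost its call with DESeq2 (adjusted p = 0.7154). Spleen against blood monocytes (0, with Il1r2 included here) had 1 with DESeq2, with no filter and with 20 cells per sum, and 0 to 1 without a hashtag each. Marrow against blood monocytes (2 lower, with Il1b included here) had 4 with no filter and 0 when thinned. Members with a more negative marrow-to-blood difference in monocytes (1) were 3 with DESeq2, 0 with limma and when thinned, 2 with a margin of 10 times, stricter class rules or these sums alone, and 0 to 2 without a hashtag each. Between hashtags 1 to 4 and 5 to 8, blood neutrophils (0) had 1 with no filter, 1 when thinned and 2 with these sums alone; spleen neutrophils (0) had 1 with a margin of 10 times; immature marrow neutrophils and blood monocytes (0) each had 1 with no filter. Spleen monocytes (2, with Il1r2 included here) had 1 with DESeq2 and stricter class rules, and 0 to 2 without a hashtag each. They had 0 with limma, a margin of 10 times, thinning, these sums alone and without monocytes of 1% S100a8 and S100a9 or more. The Il1rn to Il1b ratio of tumor against blood (-0.72) was -0.95 with stricter class rules and -0.84 to -0.42 without a hashtag each. The cause of these changes was not tested, apart from the smaller number of genes or sums that an alternative leaves.

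Scaling moved calls over all genes. The share of called genes that were higher went, with TMM factors, from 47.9% to 26.8% in tumor against blood, 60.4% to 31.5% in spleen against blood, 26.7% to 43.2% in marrow against blood, 51.7% to 68.0% in tumor neutrophils against macrophages, 79.0% to 60.4% in spleen against blood monocytes, 59.1% to 47.8% in blood monocytes against neutrophils and 68.1% to 53.0% in the marrow interaction; DESeq2 gave 34.6% in place of 47.2% for mature against immature neutrophils, and 52.4% to 63.1% in place of 86.4% to 90.9% for the hashtag sets in mature neutrophils. Against immature marrow neutrophils, those of spleen had 64 genes called, of which 45.3% were higher, against 260 with TMM (5.38%) and 113 with DESeq2; the spleen interaction had 107, against 216 with DESeq2. With limma the genes called in tumor against blood went from 2942 to 4618, in spleen against blood from 1166 to 275, in marrow against blood from 3836 to 2077, in spleen against blood monocytes from 1943 to 611 and in marrow against blood monocytes from 5070 to 2942. Tumor against blood had 855 with a hashtag margin of 10 times, 715 with thinned cells and 1825 with 3% required of tumor neutrophils.

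The fit with the hashtag number as a replicate block changed no member's call in the 43 tests it could be run for, and moved the genes called in spleen against blood from 1166 to 1527; 7 of 8 blood hashtags correlated best with their own number in spleen, 4 of 8 with marrow. Pairing by number also changed no call of the Il1rn to Il1b ratio against blood (2.38 in marrow, -0.11 in spleen, -0.99 over the 4 tumor pairs, where the smallest possible p is 0.125). No paired analysis was possible for the hashtag sets because a number occurs in 1 set. Requiring 20 cells per sum left no tumor sum. Alternatives added after seeing the data were the fit of the compared sums alone the paired test of the ratio and the removal of monocytes with 1% or more of S100a8 and S100a9. Tumor results rest on 4 sums of few cells.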

Other observations

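Tumor cells outside the compared classes also carried these transcripts. The 33 tumor monocytes had 5262.3 CPM of Il1b, 823.5 of the decoy receptor Il1r2, 334.3 of the antagonist Il1rn and 269.1 of Il1rap, levels that lie between the mean of tumor neutrophils and the means of monocytes from the other tissues; too few carried a single hashtag for sums, so no test was made. The 81 tumor cells that met the rules of several classes had 10557.0 CPM of Il1b, 1737.9 of Il1r2, 645.8 of Il1rap, 580.4 of Il1rn and 157.9 of Il1a. The 159 tumor cells that met no rule had 1812.9 CPM of Il1b and 410.2 of Il1r2, and 34.05 CPM of Il1r1, the signalling receptor.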
